A study of Mus musculus with 12 samples.

Results

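The genes described here are 36 mouse antioxidant genes and targets of the transcription factor NRF2, listed by name for their known roles. The list was made with earlier results of these data known, so shares of members set against all genes are descriptions. A member was measured where a probe set on the array named it as its only gene symbol, and where a gene had several, the one with the highest mean level on the 12 arrays stood for it. This gave 31 of the 36 members, and all 31 passed the filter on low levels, among 12825 genes tested of 17097 with a probe set. The other 5, Keap1, Prdx5, Prdx6, G6pdx and Mt2, have no probe set of their own and were not analysed here.

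Islet transcripts were measured on Affymetrix arrays in 4 genotypes, with 3 arrays each. The hIAPP-TgxBACE2-KO mice carried human islet amyloid polypeptide (hIAPP), the peptide that forms islet amyloid, as a transgene and lacked BACE2, an aspartyl protease of beta cells. The hIAPP-Tg mice carried the transgene with BACE2 present, the BACE2-KO mice lacked BACE2 without the transgene, and the WT mice had neither change. All mice were 12 weeks old and ate standard chow. The labels give every group, WT included, the strain name B6;129P2-Bace2tm1Bdes/J. The sources used here give neither the promoter of the transgene nor whether islets of several mice were joined on an array, and the p-values therefore rest on the spread between arrays, part of which may be technical.

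Reactive oxygen species are met in most cells by enzymes that use glutathione or thioredoxin, both kept reduced with NADPH. NRF2, the product of Nfe2l2, drives many of their genes: KEAP1 holds it for degradation in unstressed cells, oxidants and electrophiles modify KEAP1, and NRF2 then pairs with small MAF proteins at antioxidant response elements. Beta cells are known for low levels of catalase and glutathione peroxidase, and oxidative stress is among the effects described for aggregating hIAPP.

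Levels are log2 expression values, so a difference of 1 is a doubling, and they are compared between arrays for the same gene and never between genes. A gene was called at a Benjamini-Hochberg adjusted p under 0.05 over all 12825 genes in a limma fit of the 12 arrays. Apart from the single changes and the pair together, BACE2 loss was averaged over transgene status: the mean of the difference between hIAPP-TgxBACE2-KO and hIAPP-Tg islets and that between BACE2-KO and WT islets. The transgene was averaged over BACE2 status in the same way. In whole islets, fewer cells of a type and less RNA per cell cannot be told apart.

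The arrays held strong islet hormone signal: Ins2 ranged from 13.93 to 14.03, Gcg from 13.05 to 13.22 and Sst from 12.14 to 12.87. The Bace2 probe set differed by -0.16 between hIAPP-TgxBACE2-KO and hIAPP-Tg and by -0.15 between BACE2-KO and WT islets (adjusted p = 0.74 and 0.941 by limma). Since it is not known here if its probes fall within the deletion, it does not check the genotype labels. Exocrine and immune markers varied between arrays: the mean level of the acinar markers ran from 9.55 to 10.48 in hIAPP-TgxBACE2-KO, 9.56 to 10.47 in hIAPP-Tg, 9.75 to 11.28 in BACE2-KO and 8.83 to 11.47 in WT islets. That of the macrophage markers ran from 5.92 to 7.04 in hIAPP-TgxBACE2-KO, 6.52 to 6.94 in hIAPP-Tg, 5.94 to 6.35 in BACE2-KO and 5.90 to 6.31 in WT islets.

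Srxn1 was the member with a called difference: it rose with BACE2 loss averaged over transgene status. It encodes sulfiredoxin, which repairs peroxiredoxins that have been overoxidised by peroxide, and it is a known NRF2 target. Its promoter, the 250 bases before the transcription start (RefSeq, GRCm38.p6, chr2:152105274-152105523, forward strand), is shown because it belongs to the gene with the call, and the capitals mark the letters TGANTCAGC, which begin 45 bases before the start.
Srxn1 promoter: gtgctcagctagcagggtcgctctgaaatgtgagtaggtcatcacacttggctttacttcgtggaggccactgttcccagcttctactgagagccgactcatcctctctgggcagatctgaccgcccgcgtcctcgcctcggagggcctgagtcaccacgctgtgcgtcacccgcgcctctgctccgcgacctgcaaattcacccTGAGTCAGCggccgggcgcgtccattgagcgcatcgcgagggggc

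Antioxidant response elements are often written with the core TGACNNNGC, and TGANTCAGC is a close form that also holds the letters of an AP-1 site, TGANTCA. The second form was added to the search after the Srxn1 sequence had been seen. Both strands were searched from 250 bases before each start to the 50 bases from it on, in 32851 windows of 27025 genes. Of the 36 members, 30 had a window: TGACNNNGC was in 9 of them, against 14% of all genes, and TGANTCAGC in 4, against 1.37% of all genes. The motifs overlap where the N of TGANTCAGC is C, and at least 1 of them was in 10 members, which is 33.3% of the 30, against 14.7% of all genes. Members were listed in part as targets of NRF2, so their share is a description and not a test. A match is a run of letters and not a shown binding site.

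The TGANTCAGC sites of Srxn1 and of 2 other measured members are set beside that of Me1, an NADPH-producing enzyme described further on, so that matched letters can be read against levels. Outside the members, sites were listed only for redox genes that were called, and Me1 is shown through its call. This set therefore cannot show whether the letters go with a difference. The Me1 site spans the transcription start. The motif is in capitals and each line is read on the strand that holds it, 5′ to 3′: Srxn1 at chr2:152105469-152105497 on the forward strand, Osgin1 at chr8:119437038-119437066, Prdx1 at chr4:116685456-116685484 and Me1 at chr9:86695902-86695930 on the reverse strand, all from RefSeq, GRCm38.p6.
Srxn1: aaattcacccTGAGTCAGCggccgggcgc
Osgin1: ttcataagcgTGAGTCAGCaggggcccct
Prdx1: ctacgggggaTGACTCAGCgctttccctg
Me1: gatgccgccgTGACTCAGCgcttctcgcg
These genes differed by unlike amounts. BACE2 loss, averaged over transgene status, gave a difference of 0.36 for Srxn1 and 0.27 for Me1, both called by limma, and of -0.02 for Osgin1 and 0.02 for Prdx1, neither of them called (adjusted p = 0.971 and 0.952 by limma).

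Srxn1 had levels of 9.04, 9.02 and 8.91 in hIAPP-TgxBACE2-KO islets, against 8.51, 8.59 and 8.72 in hIAPP-Tg islets. In BACE2-KO islets it had 9.14, 9.11 and 8.83, against 8.59, 8.65 and 8.81 in WT islets. Each of the 6 arrays without BACE2 (8.83 to 9.14) was above each of the 6 with it (8.51 to 8.81), an order that 0.717% of all genes tested also showed in this direction. The averaged difference was 0.36 (SE 0.07, adjusted p = 0.0319 by limma), a 1.29-fold rise, and 0.92% of all genes tested were called in that comparison. It was 0.38 between hIAPP-TgxBACE2-KO and hIAPP-Tg islets and 0.34 between BACE2-KO and WT islets, neither called alone (adjusted p = 0.276 and 0.417 by limma). With the transgene averaged over BACE2 status the difference was -0.06, and the interaction was 0.04 (SE 0.14, adjusted p = 1 by limma).

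The call on Srxn1 was narrow while its direction was not. The averaged difference lay between 0.28 and 0.41 under the 25 alternatives run, with limma's adjusted p between 0.0185 and 0.105. Leaving out WT replicate 1 or 2, hIAPP-Tg replicate 1 or 2, BACE2-KO replicate 1 or 2, or any hIAPP-TgxBACE2-KO array ended the call, at adjusted p-values of 0.105, 0.0881, 0.0582, 0.0821, 0.0731 and 0.0806 for the named arrays in that order and 0.0526 to 0.076 for the last group. The mean level of the macrophage markers as a covariate gave 0.35 (adjusted p = 0.0529), and that of the acinar markers 0.36 (adjusted p = 0.0349). The probe set used has a name that marks probes shared by several transcripts; the other 3 Srxn1 probe sets gave averaged differences of 0.31, 0.15 and 0.29. With the mean of all 4 the averaged value was 0.28 (adjusted p = 0.0781 by limma), and that between hIAPP-TgxBACE2-KO and hIAPP-Tg islets was 0.22. The call also ended with median centring (adjusted p = 0.0525) and without a variance trend (adjusted p = 0.062).

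**Figure D1:**
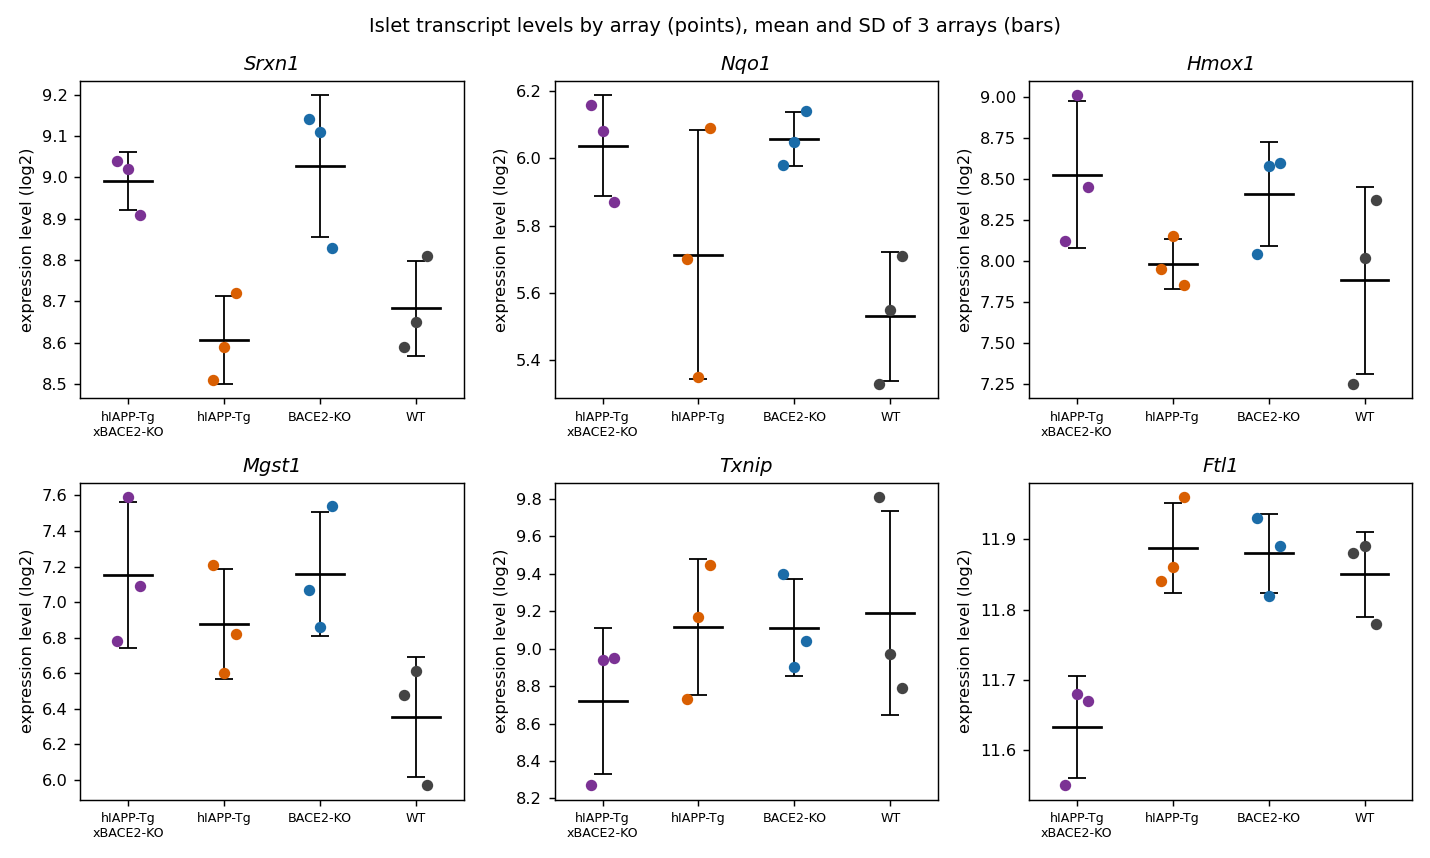
Log2 expression level (vertical axes, each panel with its own range) of 6 antioxidant genes in islets of hIAPP-TgxBACE2-KO, hIAPP-Tg, BACE2-KO and WT mice, with points for arrays and bars for the mean and SD of 3 arrays. Srxn1 is at 8.83 or higher on every array without BACE2 and at 8.81 or lower on every array with it, while the 3 hIAPP-TgxBACE2-KO arrays of Ftl1 lie below the other 9.

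Over all members, more were higher than lower without BACE2, with small differences. In BACE2-KO against WT islets 24 of 31 (77.4%) were higher, against 52.2% of all genes tested, and the median difference was 0.07, against 0.01 over all genes. Of these members 0 were called by limma, as were 0.125% of all genes. With an unadjusted p under 0.05 there were 7 members higher (22.6%, against 3.2% of all genes) and 1 lower (3.23%, against 3.08%). The arrays of both genotypes did not overlap for 6 members that were higher (19.4%, against 6.59% of all genes) and for 1 that was lower (3.23%, against 6.34%).

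With the transgene present, the shares lay nearer those of all genes. In hIAPP-TgxBACE2-KO against hIAPP-Tg islets 19 members (61.3%) were higher, against 57.1% of all genes, and the median was 0.03 for members and for all genes. The members' median was -0.01 with median centring, -0.04 without hIAPP-Tg replicate 3 and -0.01 without hIAPP-TgxBACE2-KO replicate 1, so its sign depends on single arrays. Of these, 0 were called, against 0.101% of all genes. There were 2 higher and 2 lower at an unadjusted p under 0.05 (6.45% each), against 5.03% and 3.34% of all genes. Arrays did not overlap for 2 higher and 2 lower members (6.45% each), against 6.56% and 4.57%.

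The comparisons of these 2 pairs share no array. In both, 24 members (77.4%) had the same sign, against 61.6% of all genes, and 18 (58.1%) were higher in both, against 35.6%. Averaged, 21 members (67.7%) were higher, against 55.5% of all genes, and 1 was called (3.23%, against 0.92%). The unadjusted p was under 0.05 for 8 that were higher (25.8%, against 6.7%) and 1, Ftl1, that was lower (3.23%, against 4.75%). Members of a pathway are not independent of each other, so these shares are descriptions. Beside them, the alpha cell markers were higher in 6 of 6 (median 0.22) and those of stellate cells and fibroblasts in 9 of 10 (median 0.19) with BACE2 loss averaged, while macrophage markers were lower in 10 of 14 (median -0.13). The mean level of the duct markers was 7.45 in hIAPP-TgxBACE2-KO against 6.84 in hIAPP-Tg islets. It was 7.07 in BACE2-KO against 6.85 in WT islets. In BACE2-KO against WT islets the acinar markers were higher in 15 of 15 (median 0.18). Their mean level ran from 9.75 to 11.28 on the BACE2-KO arrays and from 8.83 to 11.47 on the WT arrays, which overlapped. Markers of a cell type are not independent of each other either, here and in the comparisons below. The part of these cells in the members' levels was not tested.

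**Figure D2:**
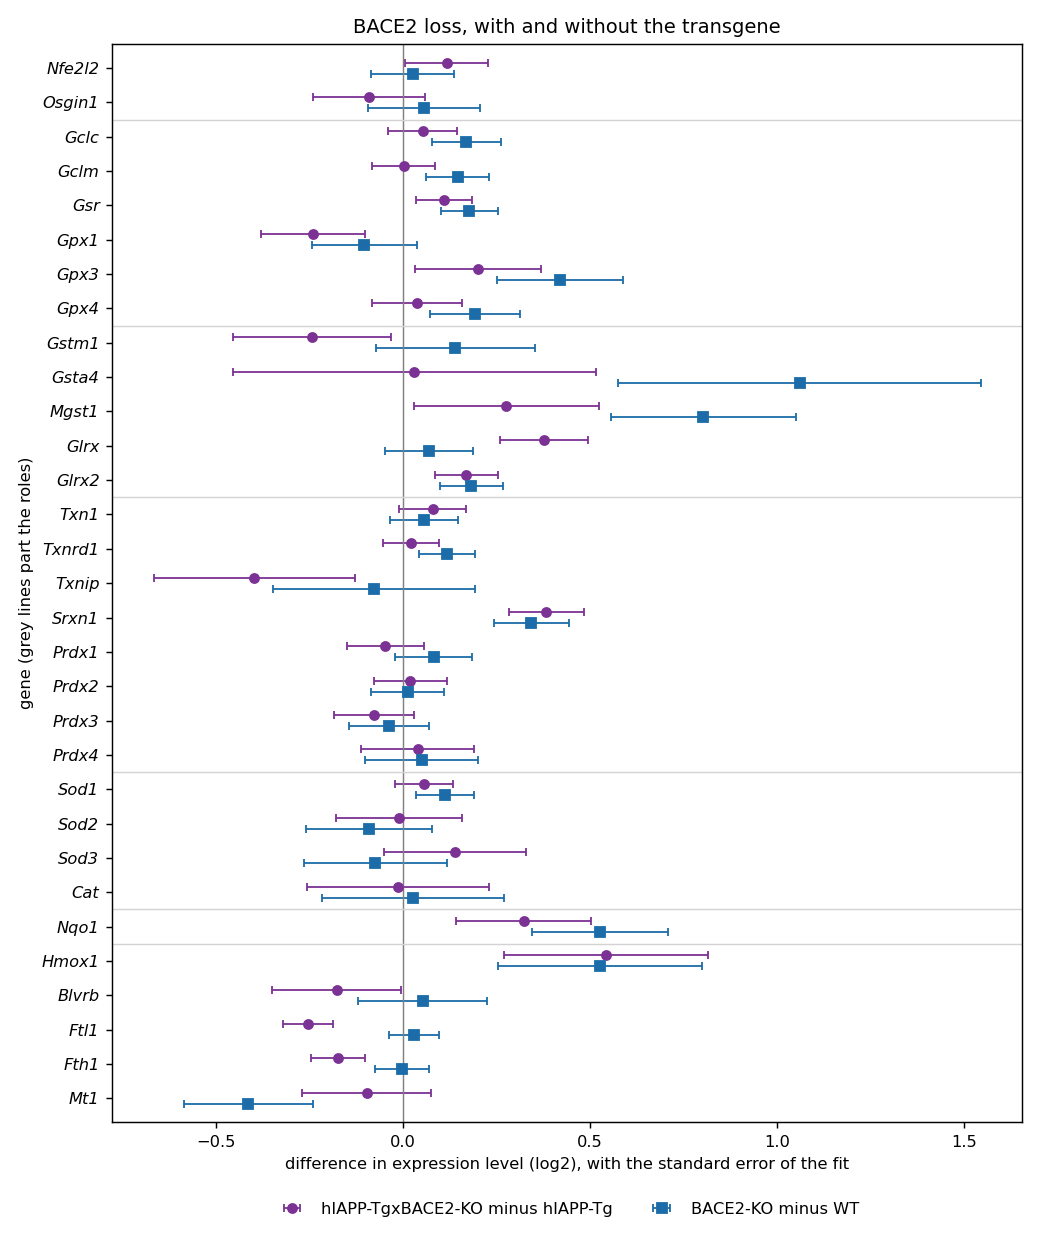
Difference in log2 expression level (horizontal axis) for each of the 31 measured members, hIAPP-TgxBACE2-KO minus hIAPP-Tg (circles) and BACE2-KO minus WT (squares), with the standard error of the limma fit; grey lines part the roles. Srxn1, Nqo1 and Hmox1 lie above 0 in both comparisons, and Ftl1 lies at -0.25 with the transgene and 0.03 without it.

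The regulators themselves differed little. Nfe2l2, the gene of NRF2, had levels of 8.64, 8.86 and 8.60 in hIAPP-TgxBACE2-KO, 8.72, 8.47 and 8.56 in hIAPP-Tg, 8.85, 8.65 and 8.56 in BACE2-KO and 8.70, 8.78 and 8.50 in WT islets. All 4 groups overlapped, and BACE2 loss gave an averaged difference of 0.07 (95% interval -0.10 to 0.24, adjusted p = 0.799 by limma). Its second, dimmer probe set gave 0.26. NRF2 is mainly controlled through its protein, which these arrays do not measure. Osgin1, a growth inhibitor induced by oxidative stress, ranged from 6.08 to 6.69 over the 12 arrays.

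Nqo1 encodes the quinone reductase that is the most used readout of NRF2 activity. Its levels were 6.16, 6.08 and 5.87 in hIAPP-TgxBACE2-KO islets, against 5.70, 5.35 and 6.09 in hIAPP-Tg islets. They were 5.98, 6.05 and 6.14 in BACE2-KO islets, against 5.33, 5.55 and 5.71 in WT islets. The BACE2-KO arrays lay above all WT arrays, as did the hIAPP-TgxBACE2-KO arrays, while hIAPP-Tg replicate 3 reached the level of the arrays without BACE2. The difference was 0.53 (SE 0.18, adjusted p = 0.626 by limma) between BACE2-KO and WT and 0.32 (adjusted p = 0.681) between hIAPP-TgxBACE2-KO and hIAPP-Tg islets. The average of 0.43 (SE 0.13, adjusted p = 0.189 by limma) stayed between 0.33 and 0.52 under the alternatives and was called in none of them.

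Hmox1 encodes the inducible haem oxygenase, which breaks haem down to biliverdin, iron and carbon monoxide and is also strongly expressed in macrophages. It had 8.12, 9.01 and 8.45 in hIAPP-TgxBACE2-KO islets, against 7.95, 8.15 and 7.85 in hIAPP-Tg islets. It had 8.04, 8.58 and 8.60 in BACE2-KO islets, against 7.25, 8.02 and 8.37 in WT islets. Groups overlapped in both pairs, and Hmox1 had one of the widest spreads among arrays of a genotype, with a pooled SD of 0.41. The averaged difference was 0.54 (SE 0.19, adjusted p = 0.295 by limma). The array with the highest Hmox1 level, hIAPP-TgxBACE2-KO replicate 2, also had the highest mean of the macrophage markers, 7.04. Its means of the stellate cell and fibroblast markers, 7.15, and of the duct markers, 8.07, were the highest too. The averaged Hmox1 difference was 0.59 with the macrophage mean as a covariate (adjusted p = 0.245 by limma). The Hmox1 difference was 0.55 with the acinar mean (adjusted p = 0.104) and 0.54 with a replicate block (adjusted p = 0.0887 by limma). Between hIAPP-TgxBACE2-KO and WT islets it was 0.65 with all arrays, 0.33 without WT replicate 1 and 0.41 without hIAPP-TgxBACE2-KO replicate 2.

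Glutathione synthesis showed small differences. Gclc, the catalytic subunit of glutamate-cysteine ligase, had levels of 9.08, 9.0 and 8.81 in hIAPP-TgxBACE2-KO, 8.87, 8.92 and 8.94 in hIAPP-Tg, 9.08, 9.01 and 8.79 in BACE2-KO and 8.76, 8.78 and 8.83 in WT islets. Its averaged difference with BACE2 loss was 0.11 (95% interval -0.03 to 0.25, adjusted p = 0.557 by limma). Gclm, the modifier subunit of the same enzyme, had 10.41, 10.51 and 10.38 in hIAPP-TgxBACE2-KO, 10.40, 10.46 and 10.43 in hIAPP-Tg, 10.73, 10.39 and 10.54 in BACE2-KO and 10.36, 10.37 and 10.49 in WT islets. Averaged, the difference was 0.08 (95% interval -0.05 to 0.20, adjusted p = 0.702 by limma). Gclm overlapped in every pair of genotypes, and Gclc overlapped with and without BACE2 in both pairs. Both intervals leave out a difference as large as that of Srxn1.

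Gsr encodes glutathione reductase, which returns oxidised glutathione to its reduced form with NADPH. Its levels were 9.15, 9.24 and 9.07 in hIAPP-TgxBACE2-KO, 9.08, 9.07 and 8.98 in hIAPP-Tg, 9.10, 9.17 and 9.17 in BACE2-KO and 8.87, 8.97 and 9.07 in WT islets. BACE2-KO arrays lay above the WT arrays, with a difference of 0.18 (SE 0.08, adjusted p = 0.755 by limma). The averaged difference of 0.14 (adjusted p = 0.32) had no counterpart on the second Gsr probe set, which gave -0.01. Gsr lies on chromosome 8, the second tested gene after Tex15, and Tex15 differed by 2.42 between BACE2-KO and WT and by 1.55 between hIAPP-TgxBACE2-KO and hIAPP-Tg islets. Ppp1r3b, 8 tested genes beyond Gsr, differed by 1.59 and 1.63 in the same comparisons, and both genes were called in both by limma. The genes directly beside Gsr, Ubxn8 and Gtf2e2, stood at -0.08 and 0.02 and at 0.07 and 0.05 in these comparisons. Dusp4, 6 tested genes beyond Gsr, stood at 0.85 and 0.62, and Fut10, 5 tested genes before it, at -0.44 and -0.15. Neither was called in these comparisons. Whether chromosome segments bred along with the Bace2 allele play a part was not tested.

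**Figure D3:**
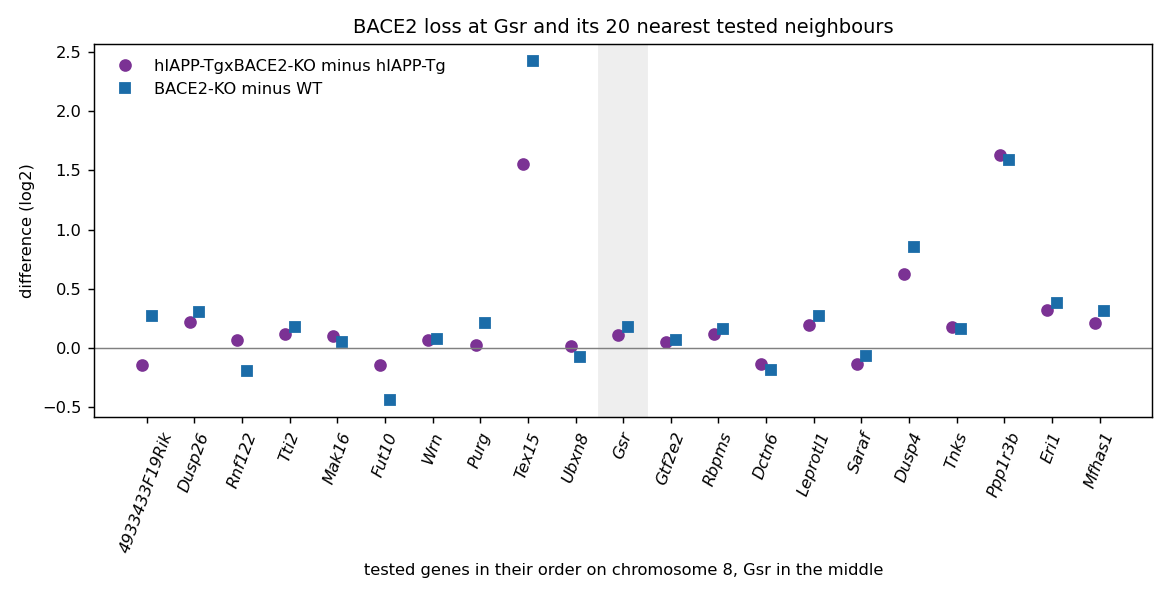
Difference in log2 expression level (vertical axis) for Gsr (grey band) and its 20 nearest tested neighbours in their order on chromosome 8, hIAPP-TgxBACE2-KO minus hIAPP-Tg (circles) and BACE2-KO minus WT (squares). Tex15 and Ppp1r3b stand between 1.55 and 2.42, and Gsr at 0.11 and 0.18.

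The measured members Osgin1, Gsr, Prdx2, Nqo1, Hmox1 and Mt1 lie on chromosome 8. Of these, 4 of 6 were higher with BACE2 loss averaged over transgene status, with a median of 0.08, against 17 of 25 on other chromosomes with a median of 0.07. The unadjusted p was under 0.05 there for 3 of the 6 (Gsr, Nqo1 and Hmox1), against 6 of the 25, and in BACE2-KO against WT islets for 3 of the 6, against 5 of the 25. Of all genes tested, 6.7% were higher and 4.75% lower at that p in the averaged comparison. In BACE2-KO against WT islets these shares were 3.2% and 3.08%. With the chromosome 8 genes left out, 100 of 12139 genes were called in the averaged comparison, against 118 of 12825 with them. In BACE2-KO against WT islets 6 were called without them, against 16 with them. Whether the share differs between chromosomes was not tested. Srxn1 lies on chromosome 2. Leaving out the chromosome 8 genes kept its difference at 0.36 and its call (adjusted p = 0.0346 by limma). That step leaves the Srxn1 values as they are, so it does not test segments bred along with the Bace2 allele.

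The glutathione peroxidases differed in sign. Gpx3, the secreted plasma form, had 10.55, 10.68 and 10.82 in hIAPP-TgxBACE2-KO, 10.31, 10.71 and 10.43 in hIAPP-Tg, 10.59, 10.56 and 11.28 in BACE2-KO and 10.44, 10.26 and 10.47 in WT islets. BACE2-KO arrays lay above WT arrays, with a difference of 0.42 (SE 0.17, adjusted p = 0.722 by limma) that was 0.19 without BACE2-KO replicate 3, the highest array. Gpx1, the main intracellular form, stood the other way, with an averaged difference of -0.17 (95% interval -0.39 to 0.04, adjusted p = 0.555 by limma) and overlapping groups. Gpx4, which reduces lipid hydroperoxides in membranes and guards against ferroptosis, is described with the transgene.

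Among glutathione transferases, Mgst1 encodes a membrane-bound transferase and peroxidase of the endoplasmic reticulum and outer mitochondrial membrane. Its levels were 6.78, 7.59 and 7.09 in hIAPP-TgxBACE2-KO and 7.21, 6.6 and 6.82 in hIAPP-Tg islets. They were 7.07, 6.86 and 7.54 in BACE2-KO and 6.48, 6.61 and 5.97 in WT islets. All arrays of BACE2-KO and hIAPP-TgxBACE2-KO islets lay above the WT arrays, and hIAPP-Tg replicate 2, at 6.6, reached into the WT range. The difference was 0.80 (SE 0.25, adjusted p = 0.48 by limma) between BACE2-KO and WT, 0.80 (adjusted p = 0.347) between hIAPP-TgxBACE2-KO and WT and 0.28 between hIAPP-TgxBACE2-KO and hIAPP-Tg islets. The first 2 share the WT arrays. The averaged 0.54 (SE 0.17, adjusted p = 0.225 by limma) was called with the macrophage marker mean as a covariate (0.65, adjusted p = 0.0396). The mean of both Mgst1 probe sets gave 0.31 averaged, 0.45 between BACE2-KO and WT and 0.50 between hIAPP-TgxBACE2-KO and WT islets, and the second of these probe sets lies below the filter level.

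Gsta4, which conjugates reactive aldehydes of lipid peroxidation, varied most among arrays of a genotype, with a pooled SD of 0.73. It had 5.19, 3.99 and 5.45 in hIAPP-TgxBACE2-KO, 5.31, 4.84 and 4.39 in hIAPP-Tg, 6.57, 4.34 and 5.76 in BACE2-KO and 4.52, 4.36 and 4.61 in WT islets. The difference of 1.06 between BACE2-KO and WT islets (SE 0.49, adjusted p = 0.79 by limma) came with overlapping groups, and it was 0.55 without BACE2-KO replicate 1 and 1.67 without BACE2-KO replicate 2. Gstm1, a cytosolic transferase of the mu class, had an averaged difference of -0.05 with BACE2 loss. Its probe set is marked as one that may also match related genes.

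The glutaredoxins, which remove glutathione from protein thiols, had positive differences without BACE2 that were not called. Glrx, the cytosolic form, had 9.97, 10.18 and 9.68 in hIAPP-TgxBACE2-KO islets, against 9.44, 9.58 and 9.68 in hIAPP-Tg islets. It had 9.85, 9.74 and 9.72 in BACE2-KO islets, against 9.60, 9.64 and 9.86 in WT islets. In the first pair a single value, 9.68, was shared, and the difference was 0.38 (SE 0.12, adjusted p = 0.392 by limma); in the second it was 0.07. The second Glrx probe set gave 0.42 and 0.08. Glrx2, the mitochondrial form, had 8.61, 8.58 and 8.56 in hIAPP-TgxBACE2-KO, 8.49, 8.40 and 8.35 in hIAPP-Tg, 8.70, 8.80 and 8.52 in BACE2-KO and 8.44, 8.48 and 8.55 in WT islets. The averaged difference was 0.18 (SE 0.06, adjusted p = 0.255 by limma), and 0.08 and 0.07 on its other probe sets.

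In the thioredoxin system, Srxn1 stood apart from the enzymes it serves. Txnrd1, the cytosolic thioredoxin reductase and an NRF2 target, had 10.59, 10.72 and 10.59 in hIAPP-TgxBACE2-KO, 10.59, 10.61 and 10.63 in hIAPP-Tg, 10.66, 10.68 and 10.49 in BACE2-KO and 10.41, 10.60 and 10.47 in WT islets. All groups overlapped with and without BACE2, and the averaged difference was 0.07 (95% interval -0.05 to 0.19, adjusted p = 0.687 by limma). Txn1, thioredoxin itself, ranged from 11.23 to 11.57 over the arrays. Of the peroxiredoxins, Prdx1 and Prdx2 of the cytosol, Prdx3 of mitochondria and Prdx4 of the endoplasmic reticulum had averaged differences with BACE2 loss of 0.02, 0.02, -0.06 and 0.05.

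Txnip, which binds and inhibits thioredoxin and is induced by glucose in beta cells, had 8.27, 8.94 and 8.95 in hIAPP-TgxBACE2-KO, 8.73, 9.17 and 9.45 in hIAPP-Tg, 9.40, 8.90 and 9.04 in BACE2-KO and 9.81, 8.97 and 8.79 in WT islets. The groups overlapped. Its difference was -0.40 against hIAPP-Tg, -0.39 against BACE2-KO and -0.47 against WT islets, comparisons that share the hIAPP-TgxBACE2-KO arrays, and the second probe set gave -0.52, -0.48 and -0.57. The 95% interval of the first ran from -0.98 to 0.19 (adjusted p = 0.76 by limma).

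The superoxide dismutases and catalase, which remove superoxide and hydrogen peroxide, showed small differences with BACE2 loss. Averaged, Sod1 of the cytosol differed by 0.09, Sod2 of mitochondria by -0.05, extracellular Sod3 by 0.03 and Cat, the peroxisomal catalase, by 0.01. The interval of Cat was wide, from -0.37 to 0.38. Sod1, on chromosome 16 as Bace2 is, had 11.55, 11.24 and 11.31 in hIAPP-TgxBACE2-KO islets, against 11.16, 11.16 and 11.21 in WT islets. These groups did not overlap, and the difference was 0.19 (SE 0.08, adjusted p = 0.532 by limma). It was 0.10 without hIAPP-TgxBACE2-KO replicate 1 and 0.09 with the mean of both Sod1 probe sets. The hIAPP-Tg arrays, with BACE2 present (11.35, 11.28 and 11.30), also lay above the WT arrays, as did the BACE2-KO arrays (11.25, 11.36 and 11.26).

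The ferritin subunits store iron as a mineral core, and the light chain was lower on every array of islets with both changes, though it was not called. Ftl1, the light chain, had 11.55, 11.68 and 11.67 in hIAPP-TgxBACE2-KO islets, against 11.84, 11.86 and 11.96 in hIAPP-Tg, 11.93, 11.82 and 11.89 in BACE2-KO and 11.88, 11.89 and 11.78 in WT islets. All 3 hIAPP-TgxBACE2-KO arrays lay below the other 9, as was so for 0.585% of all genes tested. Its arrays were the closest to each other of any member, with a pooled SD of 0.06. The difference was -0.25 against hIAPP-Tg (SE 0.07, adjusted p = 0.281 by limma), -0.25 against BACE2-KO (adjusted p = 0.962) and -0.22 against WT islets (adjusted p = 0.344), and these 3 share the hIAPP-TgxBACE2-KO arrays. The interaction was -0.28 (SE 0.09, unadjusted p = 0.0104, adjusted p = 1 by limma), so a difference between the effect with and without the transgene did not pass over all genes.

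Fth1, the heavy chain of ferritin, had 11.56, 11.79 and 11.71 in hIAPP-TgxBACE2-KO islets, against 11.82, 11.86 and 11.90 in hIAPP-Tg islets. These groups did not overlap either, with a difference of -0.17 (SE 0.07, adjusted p = 0.53 by limma) that was -0.11 without hIAPP-TgxBACE2-KO replicate 1. Against BACE2-KO and WT islets the Fth1 difference was -0.12 in each case, and the groups overlapped. In BACE2-KO islets Fth1 had 11.80, 11.89 and 11.73, against 11.85, 11.80 and 11.78 in WT islets, which overlapped. Both subunits are made from an mRNA whose translation responds to iron, a step that these arrays do not measure. Blvrb, a biliverdin and flavin reductase, had differences of -0.18 in hIAPP-TgxBACE2-KO against hIAPP-Tg and 0.05 in BACE2-KO against WT islets.

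Mt1, a metallothionein that binds zinc and copper, had 12.94, 12.54 and 12.59 in hIAPP-TgxBACE2-KO, 13.01, 12.73 and 12.62 in hIAPP-Tg, 12.80, 12.74 and 12.08 in BACE2-KO and 12.94, 13.01 and 12.91 in WT islets. BACE2-KO arrays lay below the WT arrays, and the difference was -0.41 (SE 0.17, adjusted p = 0.751 by limma) with all arrays and -0.18 without BACE2-KO replicate 3. The second, dimmer Mt1 probe set gave -0.52. In hIAPP-Tg against WT islets, the probe set used gave -0.17 and the second -0.73, so the Mt1 probe sets disagree on the size of the transgene difference. As for Srxn1, the name of the probe set used marks probes shared by several transcripts.

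The transgene gave no called member. In hIAPP-Tg against WT islets 22 of 31 members (71%) were higher, against 41.3% of all genes, with a median of 0.07 against -0.03, and 0 were called by limma, against 0.0156% of all genes. At an unadjusted p under 0.05, 1 was higher (3.23%, against 1.43%) and 0 lower (against 3.09%). Arrays did not overlap for 5 higher members (16.1%, against 3.39% of all genes) and 0 lower ones (against 5.77%).

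In hIAPP-TgxBACE2-KO against BACE2-KO islets 16 members (51.6%) were higher, against 46% of all genes, with a median of 0.00 against -0.01, and 0 were called, as were 0% of all genes. At an unadjusted p under 0.05, 0 were higher (against 2.36%) and 1 lower (3.23%, against 2.07%), and arrays did not overlap for 0 higher (against 4.09%) and 1 lower (3.23%, against 5.59%). That member is Ftl1. The members' median ran from -0.04 to 0.06 under the alternatives, so it has no settled sign. In the same comparison acinar markers were lower in 15 of 15 (median -0.61), beta cell markers lower in 13 of 14 (median -0.16), stellate cell and fibroblast markers higher in 10 of 10 (median 0.61) and macrophage markers higher in 12 of 14 (median 0.28), and their part in these values, that of Ftl1 included, was not tested. The mean level of the duct markers was 7.45 in hIAPP-TgxBACE2-KO against 7.07 in BACE2-KO islets, and its part was not tested either. Averaged over BACE2 status, 17 (54.8%) were higher, against 42.3% of all genes, and 0 were called, against 0.0078%. At an unadjusted p under 0.05, 2 were higher (6.45%, against 3.06%) and 1, Ftl1, lower (3.23%, against 4.52%). Beside the values for hIAPP-Tg islets, 13 of 14 macrophage markers tested were higher in hIAPP-Tg than in WT islets, with a median of 0.68, and 14 of 14 beta cell markers were lower, with a median of -0.31. The part of either in the members' levels was not tested.

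Gpx4 was the member with an unadjusted p under 0.05 for the transgene alone. It had 11.26, 10.89 and 10.83 in hIAPP-Tg islets, against 10.79, 10.63 and 10.67 in WT islets. In hIAPP-TgxBACE2-KO islets it had 11.04, 11.13 and 10.92, against 11.06, 10.68 and 10.93 in BACE2-KO islets. The first pair did not overlap, with a difference of 0.30 (SE 0.12, adjusted p = 0.95 by limma) that was 0.16 without hIAPP-Tg replicate 1, and the second pair overlapped, with 0.14. Averaged, the transgene gave 0.22 (adjusted p = 0.644), and the second Gpx4 probe set 0.24. Prdx4 had an averaged difference of 0.24 with the transgene (SE 0.11, adjusted p = 0.647 by limma), which was 0.15 without hIAPP-Tg replicate 1, 0.16 with array weights and 0.13 with the mean of its 4 probe sets.

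**Figure D4:**
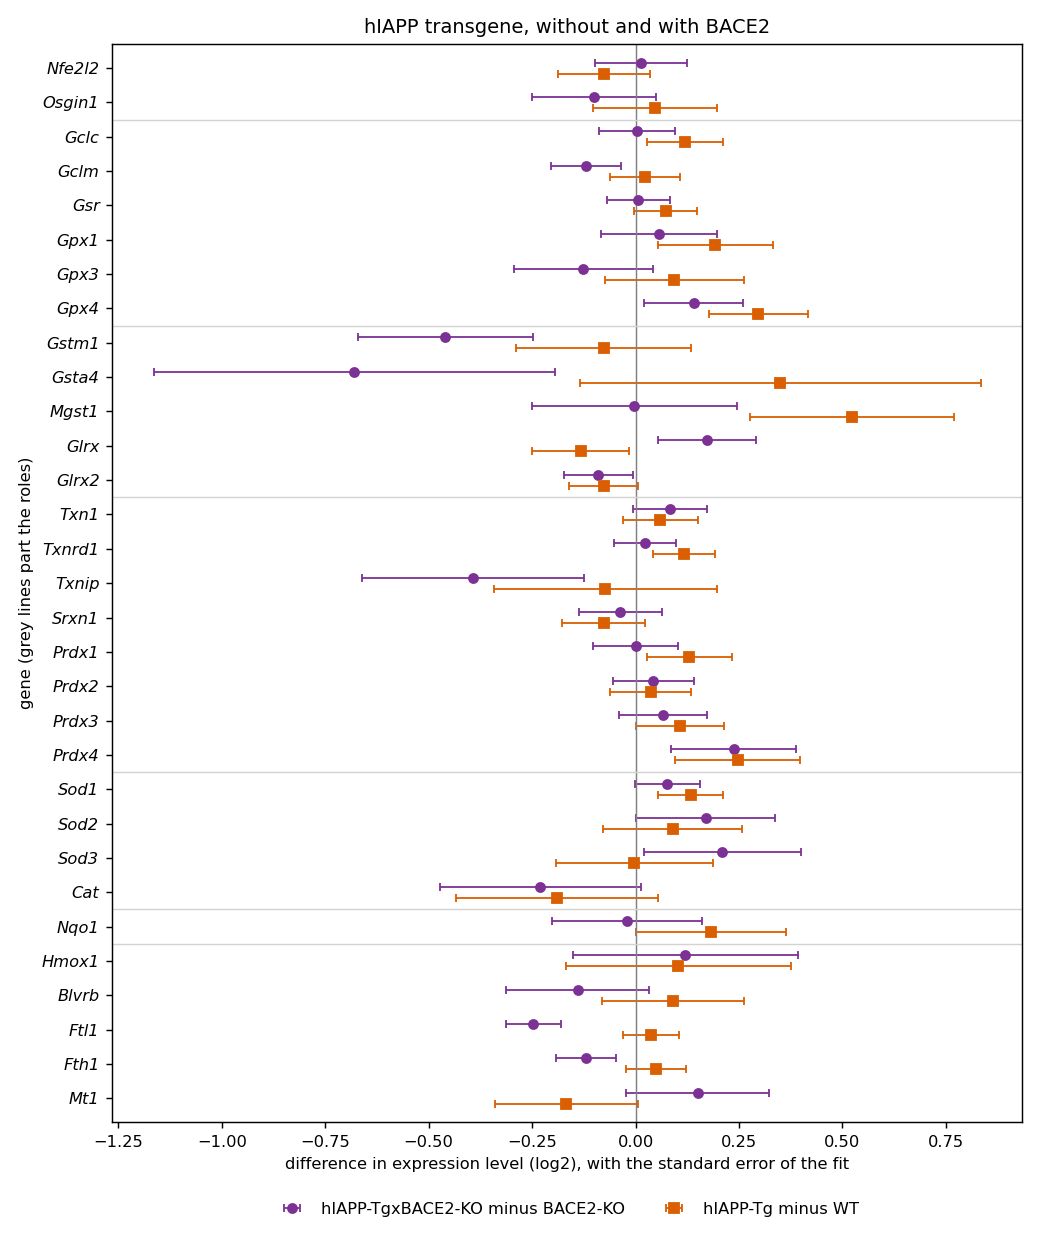
Difference in log2 expression level (horizontal axis) for each of the 31 measured members, hIAPP-TgxBACE2-KO minus BACE2-KO (circles) and hIAPP-Tg minus WT (squares), with the standard error of the limma fit; grey lines part the roles. Gpx4 and Prdx4 lie above 0 in both, Ftl1 lies at -0.25 without BACE2 and 0.04 with it, and no member was called.

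Islets with both changes were also set against WT islets. There 22 members (71%) were higher, against 49.2% of all genes, with a median of 0.09 against 0.00, and 0 were called by limma, against 0.133% of all genes. The unadjusted p was under 0.05 for 7 higher members (22.6%, against 3.88%) and 1 lower one (3.23%, against 4.55%). Arrays did not overlap for 8 higher members (25.8%, against 6.68% of all genes) and for 1, Ftl1, that was lower (3.23%, against 8.2%). Acinar markers were lower there in 14 of 15 (median -0.32), macrophage markers higher in 12 of 14 (median 0.37) and stellate cell and fibroblast markers higher in 10 of 10 (median 0.64), and their part in these counts was not tested. The mean level of the duct markers was 7.45 in hIAPP-TgxBACE2-KO against 6.85 in WT islets, and its part was not tested either.

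The interaction asks whether the difference with BACE2 loss was larger with the transgene than without it. It was negative for 22 members (71%, against 44.6% of all genes), with a median of -0.09 against 0.02. Of these members 0 were called by limma, against 0.0078% of all genes. At an unadjusted p under 0.05, 0 were positive (against 1.4% of all genes) and 1, Ftl1, was negative (3.23%, against 0.998%).

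The wider redox network was read from 8 lists with the members left out, again for BACE2 loss averaged over transgene status. Of the genes tested, 8 of 12 NRF2 regulators, 7 of 12 genes of glutathione synthesis and transport, 15 of 25 transferases and detoxifying enzymes and 12 of 16 sources of NADPH were higher. So were 19 of 30 genes of the thioredoxin, glutaredoxin and methionine sulfoxide repair systems, 4 of 13 genes of haem and iron, 4 of 7 oxidant producers and 3 of 5 genes of the metal response. Each gene counted once, 72 of 119 (60.5%) were higher, against 55.5% of all genes, and several of the lists lie near that share. The list medians ran from -0.03 for haem and iron to 0.06 for NADPH supply, beside 0.02 for all genes. Of the 119 genes together, 4 were called (3.36%, against 0.92% of all genes), 2 higher and 2 lower, and each separated the 6 arrays without BACE2 from the 6 with it, as 0.717% of all genes did upward and 0.639% downward.

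Me1, the cytosolic malic enzyme, which makes NADPH from malate, had 8.59, 8.73 and 8.64 in hIAPP-TgxBACE2-KO islets, against 8.35, 8.34 and 8.39 in hIAPP-Tg islets. It had 8.76, 8.63 and 8.65 in BACE2-KO islets, against 8.38, 8.52 and 8.40 in WT islets. The averaged difference was 0.27 (SE 0.05, adjusted p = 0.0362 by limma), though the second Me1 probe set gave 0.09 and the mean of both gave 0.18 (adjusted p = 0.221). The call was lost in 15 of 25 alternatives, among them 11 of the 12 that left out an array, with 0.25 to 0.29 and adjusted p-values up to 0.114. Me1 is a known NRF2 target.

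Aldh1a1, a retinaldehyde dehydrogenase that also oxidises lipid aldehydes, had 4.0, 4.0 and 4.54 in hIAPP-TgxBACE2-KO islets, against 3.56, 3.49 and 3.25 in hIAPP-Tg islets. It had 4.20, 4.09 and 4.30 in BACE2-KO islets, against 3.74, 3.37 and 3.43 in WT islets. The averaged difference was 0.72 (SE 0.12, adjusted p = 0.0149 by limma), and the call held in all 24 alternatives in which the gene was tested. The stricter filter, at the 40th percentile, left Aldh1a1 out for its low level. These levels lie near the filter level of 3.43, where array signal is dim. The Aldh1a1 mean was 3.43 in hIAPP-Tg and 3.51 in WT islets. Its mean over all arrays, 3.83, owed most of its margin over the filter level to the arrays without BACE2.

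H6pd, the enzyme that supplies NADPH inside the endoplasmic reticulum, fell. It had 7.50, 7.89 and 7.68 in hIAPP-TgxBACE2-KO islets, against 8.20, 8.05 and 8.07 in hIAPP-Tg islets. It had 7.72, 7.58 and 7.67 in BACE2-KO islets, against 8.0, 8.12 and 8.06 in WT islets. Averaged over transgene status, H6pd differed by -0.41 (SE 0.07, adjusted p = 0.0222 by limma). The call was lost without WT replicate 1 or 2, hIAPP-Tg replicate 3, BACE2-KO replicate 2 or hIAPP-TgxBACE2-KO replicate 3, at adjusted p-values of 0.0592, 0.072, 0.0503, 0.0568 and 0.0536.

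Selenop, a secreted protein that carries selenium for the glutathione peroxidases and thioredoxin reductases of other cells, also fell. It had 11.82, 11.55 and 11.68 in hIAPP-TgxBACE2-KO islets, against 12.21, 12.03 and 12.09 in hIAPP-Tg islets. It had 11.71, 11.65 and 11.86 in BACE2-KO islets, against 12.22, 11.98 and 11.99 in WT islets. For Selenop the averaged value was -0.38 (SE 0.07, adjusted p = 0.0213 by limma). The call was lost without WT replicate 1, hIAPP-Tg replicate 3 or BACE2-KO replicate 2, at adjusted p-values of 0.0615, 0.0503 and 0.054, and without a variance trend, at 0.0521.

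**Figure D5:**
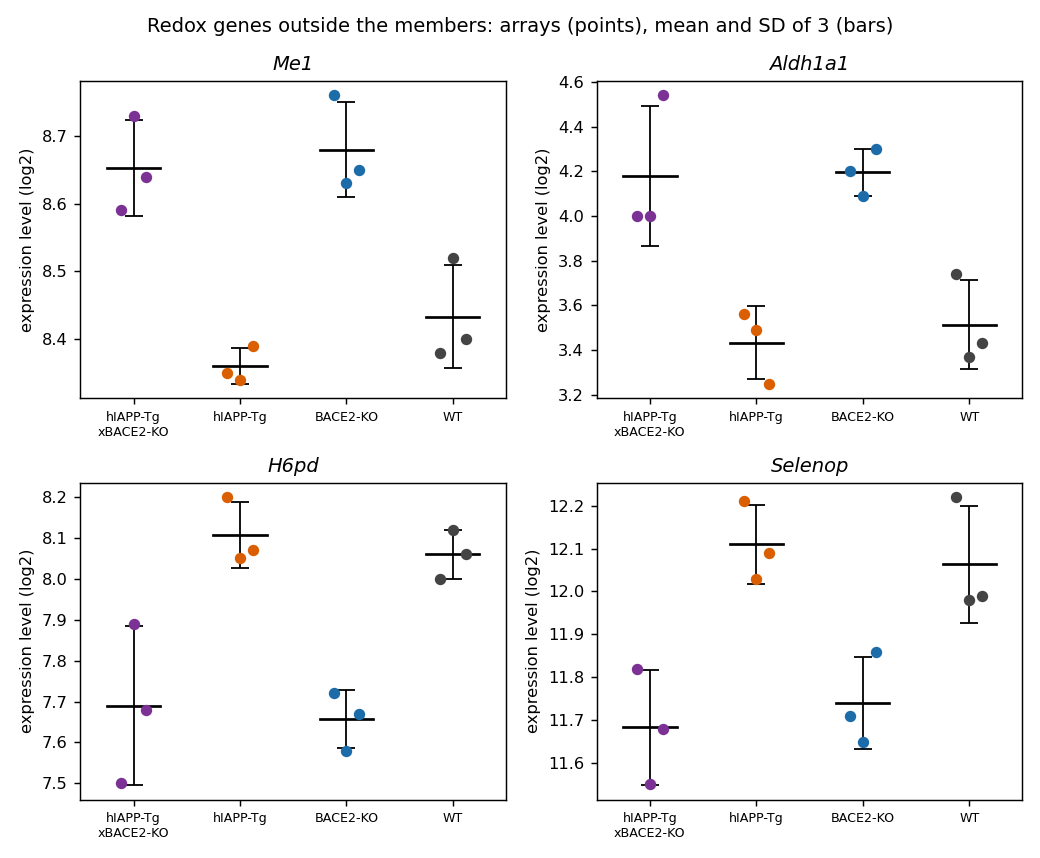
Log2 expression level (vertical axes, each panel with its own range) of the 4 called redox genes outside the members in hIAPP-TgxBACE2-KO, hIAPP-Tg, BACE2-KO and WT islets, with points for arrays and bars for the mean and SD of 3 arrays. Me1 and Aldh1a1 are higher, and H6pd and Selenop lower, on each of the 6 arrays without BACE2 than on each of the 6 with it.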

How the data were processed

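The deposited values are log2 expression levels of 45141 probe sets on 12 arrays. The authors made them with RMA, run in affy, per the submitters' processing notes; no build or version is given in the sources used here. RMA corrects background, normalizes between arrays and summarises probes, and it can shrink small differences of dim genes. Arrays hold no read depth, and their number limits the precision. Array medians ran from 4.22 to 4.35, and at most 2.22% of values were equal between any pair of arrays.

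Probe sets were named through the platform annotation: 28898 had a single symbol, 551 had several and 15692 were not listed. Per gene the probe set with the highest mean was kept, and genes under the 25th percentile (3.43) were left out. Group means were fitted with limma 3.58.1 in R 4.3.3 (lmFit, eBayes with a variance trend), with Benjamini-Hochberg adjustment over 12825 genes, two-sided, and the steps were tested on simulated data. Differences carry the standard error (SE) of the fit.

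All members are accounted for. Those described in full were Nfe2l2, Nqo1, Hmox1, Gclc, Gclm, Srxn1, Txnrd1, the called members and, per comparison, up to 8 a direction with the smallest unadjusted p under 0.05; Txnip was added after its values were seen. Of other lists the called genes were named, or up to 3 a list with the smallest p. The members, lists and tests were chosen with earlier results of these data known. Alternatives changed the filter, probe sets, normalization, variance model, arrays fitted, covariates, threshold, replicate block and chromosome 8 genes, or left out an array. Promoter windows are RefSeq's, GRCm38.p6. Plots used matplotlib 3.10.9.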

Additional observations from a re-analysis of the deposited data

How the results depend on the processing

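None of the gene differences that were rerun under the alternatives reversed its direction. Small differences, such as those of Osgin1, Prdx1, Prdx2 and Cat with BACE2 loss, were not among those rerun, so their signs are not settled. The median difference of the members changed sign in hIAPP-TgxBACE2-KO against hIAPP-Tg islets (-0.04 to 0.10, 0.03 as reported) and against BACE2-KO islets (-0.04 to 0.06, 0.00 as reported). In the comparisons of single genotypes, in the averaged transgene and in the interaction, 0 members were called under every setting run. The 1 member called for BACE2 loss averaged over transgene status, Srxn1, was 0 with the mean of all probe sets of a gene, with median centring, without a variance trend, and between 0 and 1 when single arrays were left out. With the macrophage covariate 1 member was called, Mgst1, and Srxn1 stood at an adjusted p of 0.0529. By their labels, same-numbered arrays share only a number, and whether they were prepared together is not known here. The correlations of their deviations from the group means ran from -0.129 to 0.372, and 10 of 18 exceeded 0.1. The replicate block left 1 member called, Srxn1 (adjusted p = 0.0369 by limma), while 205 genes were called in that comparison against 118. Other settings gave 83 genes without a variance trend, 192 at an adjusted p under 0.10, and 46 without WT replicate 1 or 2, 63 without hIAPP-Tg replicate 2, 64 without hIAPP-Tg replicate 3 and 75 without hIAPP-TgxBACE2-KO replicate 3. The median averaged difference of the members with BACE2 loss lay between 0.03 and 0.09. Signal near background limits Gsta4, Sod3 and Aldh1a1.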

Other observations

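Genes that work beside the members differed without passing the test. The small MAF partners of NRF2, Maff and Mafg, had differences of 0.32 (adjusted p = 0.349) and 0.23 (adjusted p = 0.359 by limma) with BACE2 loss averaged over transgene status. Chac1, which degrades glutathione, stood at 0.56 (adjusted p = 0.111), Ugdh, which makes the sugar donor for glucuronidation, at 0.25 (adjusted p = 0.0834), and Nxn, a thioredoxin-like protein, at 0.43 (adjusted p = 0.0979 by limma). Slc40a1, the iron exporter ferroportin, stood at -0.38 (adjusted p = 0.125), and Slc39a10, a zinc importer, at 0.55 (adjusted p = 0.0864 by limma).

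In hIAPP-Tg against WT islets, Trf, the iron carrier transferrin, stood at 1.48 (SE 0.36, adjusted p = 0.95 by limma), Noxo1, an organiser of an NADPH oxidase, at 0.53, Aldh7a1, an aldehyde dehydrogenase, at -0.44 and Rpia, an enzyme of the pentose phosphate pathway, at -0.28, none of them called. Trf also stood at 0.80 in BACE2-KO and at 1.42 in hIAPP-TgxBACE2-KO against WT islets, called in neither. Its difference from WT islets was thus not confined to the transgene.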
